A study of Homo sapiens with 12 samples.

Results

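Class I antigen presentation was followed through 9 genes of the machinery: the heavy chains HLA-B, HLA-C, HLA-E and HLA-F, the light chain B2M, the peptide transporter subunits TAP1 and TAP2, the peptide loading factor TAPBP, and the class I transactivator NLRC5. The rule lists the genes by name for their role in the pathway. All 9 were found among the 58347 genes in the count files, and all 9 were among the 16740 that passed the filter on low counts.

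RNA sequencing was performed on A375 cells, an established human melanoma line with an activating BRAF mutation. Cells were exposed for 8 h to DMSO (the solvent control), tretinoin (all-trans retinoic acid, an agonist of retinoic acid receptors), vemurafenib (an inhibitor of mutant BRAF), or vemurafenib with tretinoin (the combination). Each group held 3 libraries, and the labels give a dose of 5 µM for every group, DMSO included. Treatments were applied in triplicate to 1 cell line. How far the 3 libraries of a group were handled apart is not stated, so p-values measure only the spread between these libraries, which may be technical.

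Class I molecules carry short peptides from proteins made inside the cell to its surface, where CD8+ T cells and natural killer cells read them. Proteasomes cut the peptides, the TAP1 and TAP2 heterodimer pumps them into the endoplasmic reticulum, tapasin (the product of TAPBP) bridges the transporter to empty class I molecules, and B2M pairs with each heavy chain. Transcription of most of these genes is set by NLRC5, by factors of the interferon response such as IRF1, and by NF-kB, and loss of this machinery is a known route by which melanoma escapes T cells.

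The promoters of these genes show the elements that such factors bind, and they are printed because the results below turn on TAP2 and TAPBP, which moved in opposite directions. Sequences were taken from RefSeq promoters (GRCh38.p14) for the 7 members that matched, all but HLA-E and NLRC5. Each runs 5′ to 3′ on the strand of its gene. Capitals mark matches, on either strand, to an ISRE core bound by interferon regulatory factors (GAAANNGAA), an NF-kB site, a short CRE (cyclic AMP response element) core (TGACG) and a Y box bound by NF-Y (CCAAT). The HLA-B stretch lies at chr6:31357189-31357429 on the minus strand and ends 10 bases before the start site. The B2M stretch lies at chr15:44711267-44711486 on the plus strand and ends 31 bases before the start site. The shorter stretches for TAP1 (chr6:32853809-32853838), TAP2 (chr6:32838769-32838798) and TAPBP (chr6:33314079-33314108), all on the minus strand, hold the ISRE core.
HLA-B: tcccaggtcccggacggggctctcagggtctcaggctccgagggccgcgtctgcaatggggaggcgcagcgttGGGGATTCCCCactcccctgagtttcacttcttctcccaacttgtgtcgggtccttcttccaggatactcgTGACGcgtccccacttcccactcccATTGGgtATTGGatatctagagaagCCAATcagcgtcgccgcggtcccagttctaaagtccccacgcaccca
B2M: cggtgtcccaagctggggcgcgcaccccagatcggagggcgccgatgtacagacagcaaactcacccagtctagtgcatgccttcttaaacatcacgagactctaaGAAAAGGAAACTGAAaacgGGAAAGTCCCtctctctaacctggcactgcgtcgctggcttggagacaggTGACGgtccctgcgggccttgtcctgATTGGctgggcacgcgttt
TAP1: tTTCGATTTCGCTTTCccctaaatggctga
TAP2: cGAAAGCGAAagctgcccgagcccTGACGc
TAPBP: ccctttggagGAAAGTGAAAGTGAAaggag
In HLA-B the NF-kB match is a pair that overlaps on opposite strands, and B2M, TAP1 and TAPBP each hold 2 ISRE cores that overlap by 3 bases. In windows from 250 bases before to 50 after the start site, the ISRE core was found in 5 of the 7 matched members (B2M, HLA-F, TAP1, TAP2 and TAPBP), against 8.11% of 35116 human promoter windows of the same length. The NF-kB site was also found in 5 (HLA-B, HLA-C, B2M, TAP1 and TAPBP), against 7.73% of promoters. The CRE core was found in 4 (HLA-B, HLA-C, B2M and TAP2), against 24.6%, and the Y box in 5 (HLA-B, HLA-C, HLA-F, B2M and TAP1), against 34.6%. A direct repeat spaced by 5 bases, the classical element for retinoic acid receptors, was in none of the members' windows and in 0.0883% of all promoters. TAP1 had a further RefSeq window, with its upstream part at chr6:32852762-32853011, that held none of these elements. A member was counted where any of its windows held a match, whereas the percentages are per window. TAP2 and TAPBP therefore both hold an ISRE core, while of the pair only TAPBP holds the NF-kB letters and only TAP2 the CRE core. A match is a run of letters, and binding was not measured. Other forms of these elements were not scanned. HLA-B and HLA-C, which lack the ISRE letters used here, may therefore still hold an ISRE.

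B2M and NLRC5 lie on chromosomes 15 and 16, and the other members in the major histocompatibility complex on chromosome 6. In GENCODE 29 (GRCh38), TAP2 spans chr6:32821833-32838780 and TAPBP chr6:33299694-33314387, both on the minus strand. Fragments were counted without regard to strand. Of the exon bases of TAP2, 32.3% are shared with a longer read-through gene on the same strand that was counted at 0 to 1 fragments per library. HLA-F overlaps antisense transcripts and pseudogenes, among them HLA-F-AS1 over 12.3% of its exon bases and 1 pseudogene over 16.1%. TAP1 overlaps PSMB8-AS1 over 9.49%. Fragments over these shared bases cannot be assigned to 1 gene. HLA-B shares 17.8% of its exon bases with a pseudogene on the opposite strand that was counted at 0 in every library. In Union mode a fragment that overlaps the exons of more than 1 gene is left unassigned, which lowers the counts of such genes, TAP2, HLA-B, HLA-F and TAP1 included. No alignment of at least 150 bases with at least 98% identity over its whole length was found between transcripts of 2 different HLA genes in the reference. Stretches of such identity inside longer and less alike alignments would be missed by this search, so reads shared between HLA genes are not excluded. The HLA alleles of A375 can differ from the reference, and the effect of this on HLA-B and HLA-C counts was not tested.

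Libraries held 13510235 to 21534377 counted fragments, of which the 9 members took 0.0935% to 0.109%. Tretinoin replicate 1 was the shallowest library and stood furthest from its own group, at a root mean square log2 distance of 0.488 against 0.316 to 0.423 for the other libraries. The melanoma label was checked against 7 melanocyte lineage markers. SOX10 was counted at 0 in all 12 libraries, TYR at 0 to 1 and MLANA at 1 to 19 fragments, whereas S100B (mean 9.08 CPM in DMSO) and MITF (17.6 CPM) were present, so the cells carried few of the pigment cell markers. The summed level of the 7 markers was 25.9 to 30.8 CPM in DMSO, 24.0 to 28.6 in tretinoin, 42.1 to 44.0 in vemurafenib and 38.0 to 39.5 in the combination. Of 5 leukocyte markers, CD3E, CD14 and NKG7 fell under the filter at 0 to 14 fragments, and the summed level of the list was 3.96 to 6.55 CPM in DMSO, 6.14 to 8.87 in tretinoin, 6.06 to 7.09 in vemurafenib and 6.66 to 8.75 in the combination. The part of either marker list in the results below was not tested.

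Levels are given as normalized CPM, the counts of a gene scaled to library size by the trimmed mean of M values (TMM). Differences are log2 differences from edgeR's quasi-likelihood test over all 12 libraries, with their standard error (SE), and p-values were adjusted over the 16740 genes by the Benjamini-Hochberg method. A gene was called where the adjusted p was under 0.05. Each library holds the RNA of many cells, so a change in every cell and a change in the mix of cells cannot be told apart.

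Per kb of exon, which allows levels to be compared between genes, B2M was the highest of the members at 75.4 CPM per kb over the 12 libraries, followed by HLA-C at 68.9, HLA-B at 43.8 and HLA-E at 31.6. TAPBP stood at 15.2, TAP1 at 9.66 and TAP2 at 3.59 CPM per kb. NLRC5 stood at 1.17 and HLA-F, a nonclassical heavy chain, at 0.508. Only B2M and HLA-C overlapped as neighbours in this order: B2M was above HLA-C in 11 of 12 libraries, and ranged from 70.7 to 81.7 CPM per kb against 49.0 to 76.7 for HLA-C. Each of the other neighbours kept its place in all 12 libraries. The length used was that of all annotated exons together, which for B2M (6079 bases) and HLA-F (4342 bases) is long for their proteins and lowers their level per kb. Exon bases shared with another gene are part of this length, though fragments over them were left unassigned. This lowers the level per kb of TAP2 (32.3% of bases shared), HLA-B (17.8%), HLA-F (16.1% with 1 pseudogene alone) and TAP1 (9.49%) as well.

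**Figure D1:**
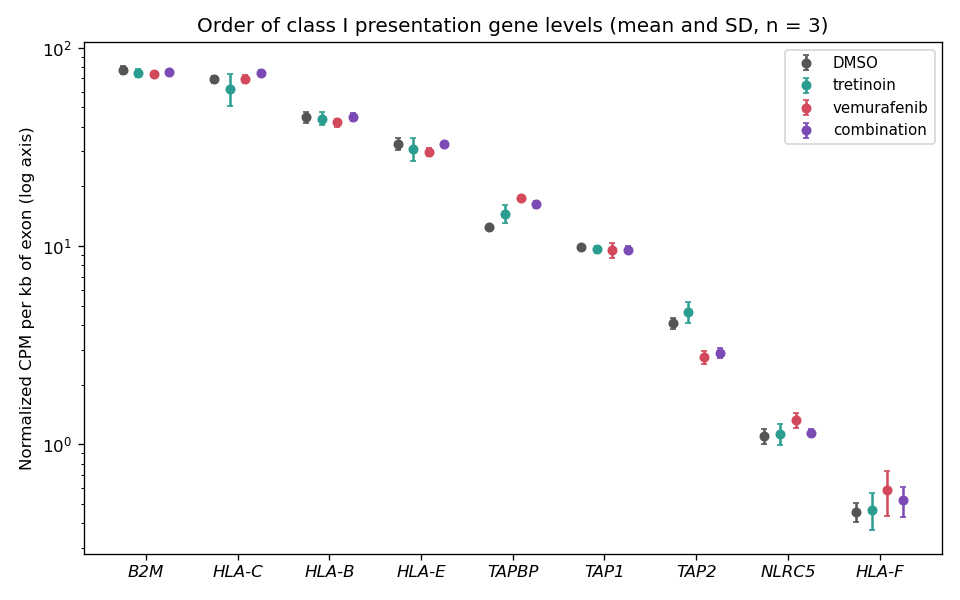
Mean normalized CPM per kb of annotated exon (log axis, SD bars, n = 3 libraries) for the 9 genes in each of the 4 groups, ordered by level. B2M at 75.4 and HLA-C at 68.9 CPM per kb lie close together at the top, and only TAP2 and TAPBP show vemurafenib and combination points clear of DMSO and away from it by more than the bars.

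No heavy chain was called against DMSO with any treatment. HLA-B, a classical chain that presents peptide to CD8+ T cells, was measured at 132, 145 and 130.0 CPM in DMSO, 124, 134 and 145 in tretinoin, 122, 128 and 134 in vemurafenib, and 141, 139 and 130 in the combination. The 4 groups overlapped throughout. The log2 difference from DMSO was −0.02 ± 0.073 (SE) with tretinoin, −0.08 ± 0.073 with vemurafenib and 0.0070 ± 0.073 with the combination, and the 95% interval with vemurafenib ran from −0.24 to 0.07.

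HLA-C, which is also a ligand of natural killer cell receptors, was measured at 174, 181 and 165 CPM in DMSO. It stood at 123, 167 and 176 CPM in tretinoin, at 168, 174 and 184 in vemurafenib and at 192, 179 and 189 in the combination. Tretinoin replicate 1 was the lowest of the 12 libraries for this gene by a wide margin, and the 3 combination libraries all lay above the 3 tretinoin libraries. No difference from DMSO was called: −0.16 ± 0.099 with tretinoin, 0.01 ± 0.099 with vemurafenib and 0.11 ± 0.099 with the combination, log2. Without tretinoin replicate 1 the difference with tretinoin was −0.014. HLA-C was higher in the combination than with tretinoin alone, by 0.26 ± 0.099 on the log2 scale (adjusted p = 0.0343, edgeR). Without tretinoin replicate 1 the difference was 0.12 and the call was lost (adjusted p = 0.126). It was also lost with only the 2 groups in the fit (adjusted p = 0.0974) and without DMSO replicates 1 or 3, vemurafenib replicates 1 or 2, or any 1 of the combination replicates (adjusted p of 0.0522 to 0.1).

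HLA-E, a nonclassical chain recognised by the NKG2A receptor of natural killer and T cells, stood at 92.3, 105 and 95.04 CPM in DMSO, 80.4, 91.4 and 105 in tretinoin, 84.6, 90.0 and 92.8 in vemurafenib, and 95.4, 97.4 and 99.8 in the combination. All 3 combination libraries were above the 3 vemurafenib libraries, at a log2 difference of 0.13 ± 0.084 that was not called (adjusted p = 0.555). HLA-E differed from DMSO by −0.08 ± 0.085 with tretinoin, by −0.13 ± 0.084 with vemurafenib and by 0.0019 ± 0.084 with the combination, the last being the smallest difference among the 9 genes with the combination. HLA-F was near the lower end of detection, at 1.54 to 3.27 CPM and 21 to 63 fragments per library. Its log2 difference from DMSO was 0.36 ± 0.239 with vemurafenib, with a 95% interval from −0.14 to 0.86, and was 0.13 without vemurafenib replicate 1. It was 0.06 ± 0.251 with tretinoin and 0.20 ± 0.240 with the combination, and none of these differences was called.

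B2M, the light chain of every class I molecule, had the smallest spread among the members, with a coefficient of variation of at most 4.8% within a group. It was measured at 456, 497 and 463 CPM in DMSO, 430, 466 and 468 in tretinoin, 447, 439 and 457 in vemurafenib, and 451, 465 and 459 in the combination. The groups overlapped, and the log2 differences from DMSO were −0.05 ± 0.065 with tretinoin, −0.08 ± 0.064 with vemurafenib and −0.04 ± 0.064 with the combination. The 95% intervals of these 3 differences lay between −0.21 and 0.09.

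**Figure D2:**
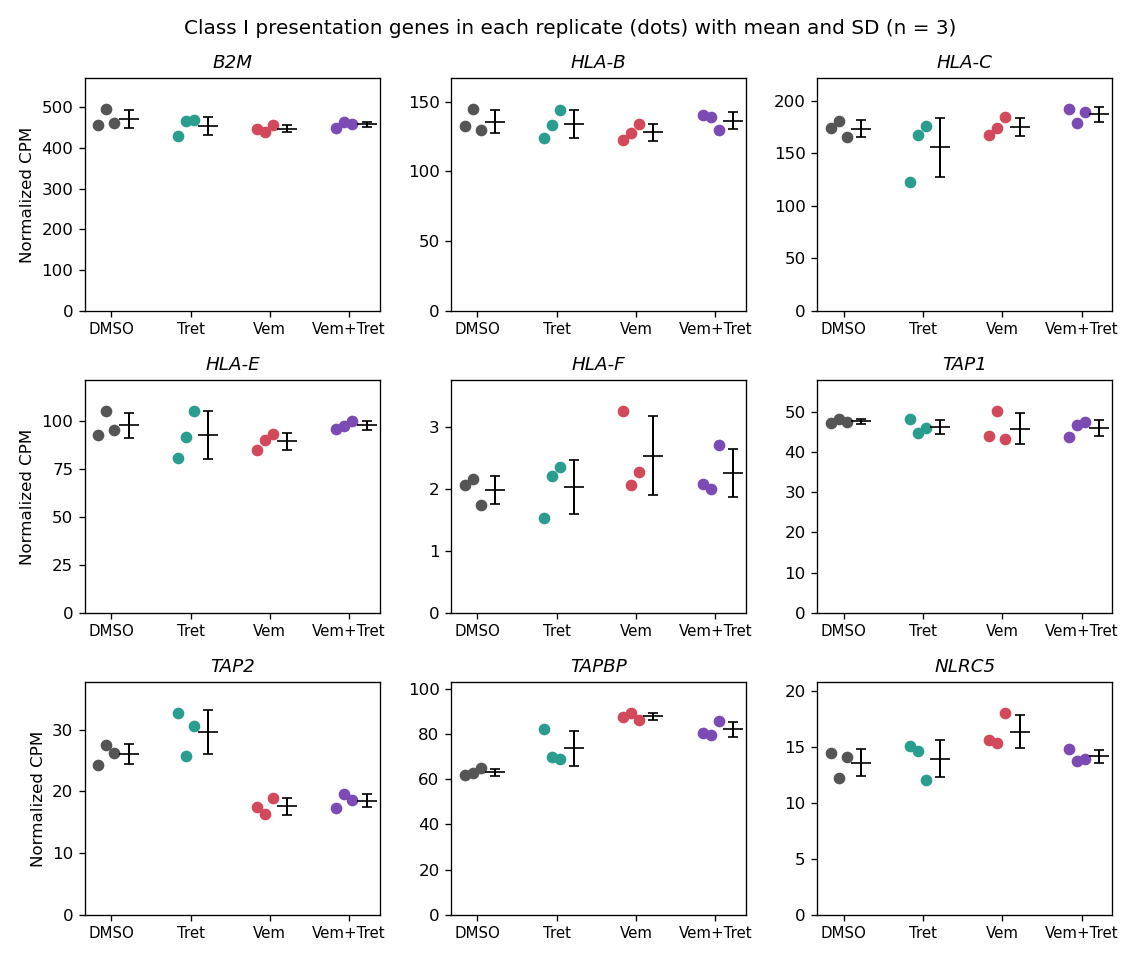
Normalized CPM of each gene in every library (dots, replicates 1 to 3 from left to right in each group) beside the group mean and SD (n = 3), with each axis starting at 0. Tret is tretinoin, Vem is vemurafenib and Vem+Tret the combination. TAP2 lay at 16.3 to 19.6 CPM in the 6 libraries with vemurafenib against 24.4 to 32.8 in the other 6, TAPBP lay at 79.7 to 89.5 against 62.0 to 82.5, and HLA-C was at 123 CPM in tretinoin replicate 1.

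Of the subunits of the peptide transporter, TAP2 was called and TAP1 was not. TAP1 was measured at 47.2, 48.2 and 47.5 CPM in DMSO, 48.2, 44.6 and 46.0 in tretinoin, 44.0, 50.3 and 43.2 in vemurafenib, and 43.8, 46.8 and 47.4 in the combination. The groups overlapped, and the log2 differences from DMSO were −0.04 ± 0.073, −0.05 ± 0.073 and −0.05 ± 0.073 in that order of treatments, with intervals between −0.21 and 0.11.

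TAP2 fell wherever vemurafenib was present. It stood at 24.4, 27.5 and 26.3 CPM in DMSO, 32.8, 25.8 and 30.6 in tretinoin, 17.5, 16.3 and 18.9 in vemurafenib, and 17.4, 19.6 and 18.6 in the combination. All 6 libraries with vemurafenib were below all 6 without it. TAP2 fell by 0.57 ± 0.099 on the log2 scale with vemurafenib, or 1.49-fold (adjusted p = 0.000117, edgeR), and by 0.49 ± 0.098 or 1.41-fold with the combination (adjusted p = 0.000424). It fell by 0.68 ± 0.097 in the combination against tretinoin (adjusted p = 1.75e-05, edgeR). The call held under each of the 20 alternatives run in these 3 comparisons. With tretinoin alone TAP2 stood 0.19 ± 0.097 above DMSO on the log2 scale, which was not called (adjusted p = 0.257). The combination and vemurafenib alone differed by 0.08 ± 0.100, with an interval from −0.13 to 0.29.

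TAPBP rose in the same libraries. It was measured at 62.0, 62.8 and 65.0 CPM in DMSO, 82.5, 69.8 and 68.9 in tretinoin, 87.8, 89.5 and 86.3 in vemurafenib, and 80.7, 79.7 and 85.9 in the combination. No library of the 3 treated groups overlapped with DMSO, and tretinoin replicate 1 stood above the other 2 tretinoin libraries. TAPBP rose by 0.47 ± 0.073 on the log2 scale with vemurafenib, or 1.39-fold (adjusted p = 3.12e-05, edgeR), and by 0.38 ± 0.073 or 1.3-fold with the combination (adjusted p = 0.0003). Both calls held under each of the 20 alternatives. With tretinoin alone the difference was 0.22 ± 0.073 (adjusted p = 0.0898, edgeR), which separated the groups but was not called across all genes. Without tretinoin replicate 1 it was 0.13 (adjusted p = 0.278, edgeR), and over all fits without 1 library it ranged from 0.13 to 0.26. It was called without tretinoin replicate 3 (0.26, adjusted p = 0.0481) and with total counts only, and in no other alternative. The 3 combination libraries all lay below the 3 vemurafenib libraries, at a log2 difference of −0.10 ± 0.072 that was not called (adjusted p = 0.628). Against tretinoin the combination stood 0.16 ± 0.072 higher (adjusted p = 0.0789), and without tretinoin replicate 1 this difference was 0.24 and was called (adjusted p = 0.00277).

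A ratio of 2 genes within a library does not depend on how libraries are scaled. These ratios were chosen after the values were seen and carry no test. TAP1 fragments per TAP2 fragment were 1.94, 1.75 and 1.81 in DMSO, 1.47, 1.73 and 1.51 in tretinoin, 2.52, 3.08 and 2.28 in vemurafenib, and 2.52, 2.39 and 2.55 in the combination. TAPBP fragments per TAP2 fragment averaged 2.43 ± 0.135 (SD, n = 3) in DMSO, 2.49 ± 0.227 in tretinoin, 5.03 ± 0.465 in vemurafenib and 4.45 ± 0.32 in the combination. In both ratios, every library with vemurafenib lay above every library without it, and both have TAP2 as the denominator. TAPBP fragments per TAP1 fragment averaged 1.328 ± 0.0353 (SD) in DMSO, 1.591 ± 0.11 in tretinoin, 1.925 ± 0.125 in vemurafenib and 1.787 ± 0.0734 in the combination. There combination replicate 2 (1.704) lay below tretinoin replicate 1 (1.712).

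NLRC5, the transactivator that binds class I promoters, stood at 14.5, 12.2 and 14.1 CPM in DMSO, 15.1, 14.7 and 12.1 in tretinoin, 15.7, 15.4 and 18.1 in vemurafenib, and 14.8, 13.8 and 13.9 in the combination. The 3 vemurafenib libraries were above all DMSO and all combination libraries. The log2 difference with vemurafenib was 0.26 ± 0.108, just short of the call (adjusted p = 0.0511, edgeR). It passed with DESeq2 size factors (adjusted p = 0.0478) and with only DMSO and vemurafenib libraries in the fit (adjusted p = 0.0364), and did not pass in the DESeq2 Wald test. It also passed without tretinoin replicates 1 or 3 (adjusted p = 0.038 and 0.0405). With tretinoin the difference from DMSO was 0.03 ± 0.111 and with the combination 0.05 ± 0.109, and the combination stood −0.21 ± 0.106 from vemurafenib (adjusted p = 0.399).

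**Figure D3:**
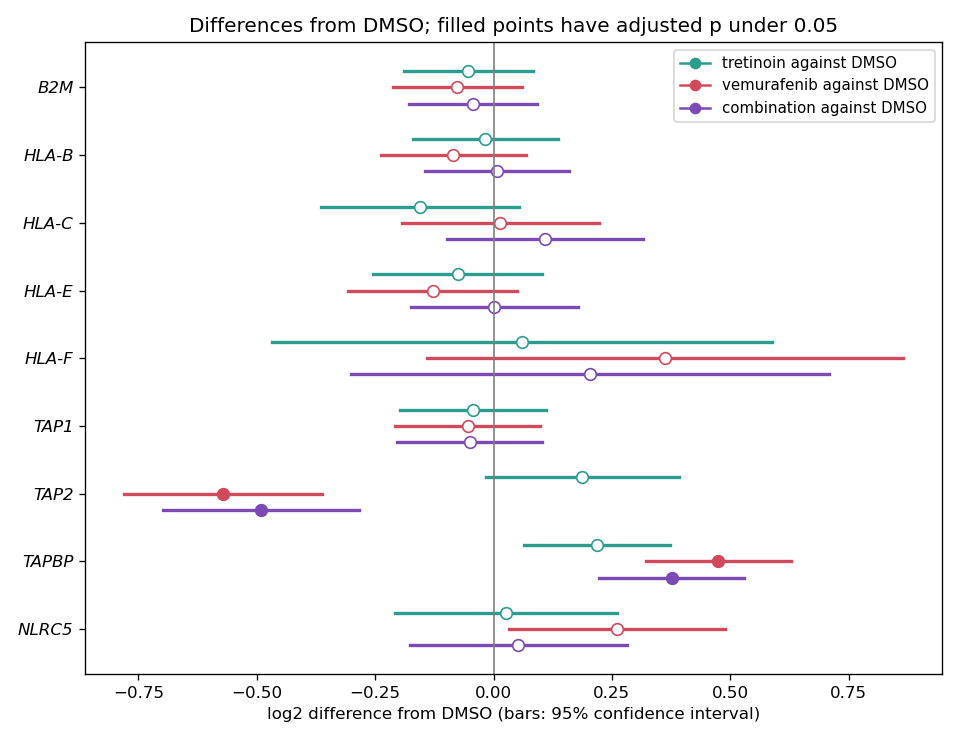
Log2 difference of each gene from DMSO with tretinoin, vemurafenib and the combination, with 95% confidence intervals from the edgeR fit; filled points have an adjusted p under 0.05. The filled points are TAP2, at −0.57 and −0.49, and TAPBP, at 0.47 and 0.38; all other points are open.

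The counts of called members were set beside the share of all genes called. With vemurafenib 1 of the 9 rose and 1 fell, where 26.4% of the 16740 genes were called higher and 26.3% lower. With the combination the counts were again 1 and 1, where 27.1% of genes were called higher and 26.5% lower. In the combination against tretinoin 1 rose (HLA-C) and 1 fell (TAP2), where 24.1% were called higher and 25% lower. Apart from TAPBP, the uncalled differences there were 0.02 ± 0.073 for HLA-B, 0.08 ± 0.084 for HLA-E, 0.14 ± 0.238 for HLA-F, 0.01 ± 0.064 for B2M, −0.0074 ± 0.073 for TAP1 and 0.03 ± 0.109 for NLRC5, log2. The median log2 difference of the 9 genes was −0.05 with vemurafenib and 0.0070 with the combination, beside 0.0195 and 0.0252 over all genes tested.

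With tretinoin alone no member was called in either direction by edgeR, or by DESeq2, where 3.48% of all genes were called higher and 2.2% lower. TAPBP was the 1 member with an unadjusted p under 0.05. In the combination against vemurafenib no member was called by either tool, none had an unadjusted p under 0.05, and 2.27% of genes were called higher and 2.2% lower. The log2 differences there were 0.09 ± 0.072 for HLA-B, 0.09 ± 0.098 for HLA-C, −0.16 ± 0.226 for HLA-F, 0.03 ± 0.064 for B2M and 0.0042 ± 0.072 for TAP1. Whether tretinoin acted differently in the presence of vemurafenib was tested as an interaction, which was called higher for 0.382% of genes and lower for 0.424%. No member was called there by edgeR or DESeq2. TAPBP had the smallest p of the 9 (interaction of −0.32 ± 0.102, adjusted p = 0.172, edgeR). The other 8 interactions ran from −0.24 ± 0.153 for NLRC5 to 0.25 ± 0.140 for HLA-C. The comparisons with DMSO share its 3 libraries, and those of the combination share the 3 combination libraries, so their values are not independent.

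The steps on either side of the members were described with gene lists. The counts of each list stand beside the shares of all genes called. Those were 26.4% higher and 26.3% lower with vemurafenib, and 27.1% and 26.5% with the combination. They were 3.48% and 2.2% with tretinoin, and 24.1% and 25% in the combination against tretinoin. Among 13 other class I heavy chains and class I-like ligands, 9 were tested. Vemurafenib gave 3 higher and 3 lower, and the combination 3 higher and 2 lower. MR1, which presents vitamin B metabolites to MAIT cells, rose by 2.02 ± 0.174 on the log2 scale with vemurafenib (adjusted p = 3.6e-08, edgeR) and by 2.19 ± 0.171 with the combination. It stood at 1.69 to 2.77 CPM in DMSO and 8.41 to 10.6 CPM in the 6 libraries with vemurafenib. HFE, an iron regulator of class I fold, rose by 0.67 ± 0.126 and 0.62 ± 0.125. MICA, a ligand of the NKG2D receptor, fell by 0.49 ± 0.102 and 0.31 ± 0.100, and the second call was lost under total counts and upper quartile scaling. ULBP2, another NKG2D ligand, fell by 0.46 ± 0.109 with the combination. RAET1E, a ligand of the same receptor, fell by 2.5 ± 0.599 with vemurafenib, on 0 to 5 fragments per library there against 12 to 16 in DMSO. Against tretinoin, the combination gave 6 calls: 3 of this list rose and 3 fell. MR1 (1.7 ± 0.161) and HFE (0.75 ± 0.127) were higher, and RAET1E (−1.2 ± 0.485) and RAET1L (−1.14 ± 0.446) lower. Each of these last 2 calls was lost in 10 or more of 19 alternatives, among them the DESeq2 Wald test. Among fits without single libraries, RAET1E stayed called without tretinoin replicate 2, vemurafenib replicate 1 or combination replicate 1, and RAET1L was lost without DMSO replicate 1, tretinoin replicate 3, vemurafenib replicate 1 or combination replicates 2 or 3.

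The 5 genes of the immunoproteasome and its activator, which cut peptides suited to class I molecules, gave no call with tretinoin or vemurafenib by edgeR or DESeq2, with none and 1 at an unadjusted p under 0.05. PSMB10 rose by 0.45 ± 0.148 with the combination (adjusted p = 0.0166, edgeR), from 4.32 to 4.80 CPM in DMSO to 5.28 to 6.88. PSMB9 was measured at 19.3, 20.8 and 15.1 CPM in DMSO, at 11.3, 17.8 and 19.0 in tretinoin and at 25.0, 20.7 and 21.1 in the combination, and rose by 0.46 ± 0.150 in the combination against tretinoin. PSME1 rose there by 0.28 ± 0.102. Both calls were lost without tretinoin replicate 1 or combination replicate 1, that of PSME1 also without combination replicate 3 and with only the groups compared, and that of PSMB10 without DMSO replicate 1 or combination replicates 2 or 3. Of the 3 catalytic subunits of the constitutive proteasome, PSMB5 fell by 0.3 ± 0.080 and PSMB7 by 0.23 ± 0.087 with vemurafenib, and PSMB5 by 0.29 ± 0.080 with the combination, and these calls were lost under total counts and upper quartile scaling. The PSMB7 call was also lost with at least 10 counts in every sample, without any 1 DMSO library and without vemurafenib replicates 1 or 2. None of the 3 subunits was called with tretinoin by edgeR, while DESeq2 called 2 lower. PSMB5 and PSMB6 were lower there at an unadjusted p under 0.05 in edgeR.

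All 9 genes for peptide trimming and loading chaperones were tested. ERAP1, the aminopeptidase that trims peptides in the endoplasmic reticulum, was the only gene of this list called with tretinoin alone, at 0.38 ± 0.102 (adjusted p = 0.0376, edgeR), a call lost with the replicate block, with only the groups compared, and without tretinoin replicate 1, DMSO replicates 1 or 2, vemurafenib replicate 2 or combination replicate 2. It stood at 56.8, 56.7 and 65.4 CPM in DMSO and at 89.9, 72.9 and 70.7 in tretinoin. ERAP1 also rose by 0.3 ± 0.102 with vemurafenib and by 0.34 ± 0.102 with the combination. Its partner ERAP2 rose by 0.73 ± 0.242 and 0.63 ± 0.242. With vemurafenib the list had 3 higher and 1 lower: SPPL3, an intramembrane protease, rose by 0.27 ± 0.088 and HSPA5, the endoplasmic reticulum chaperone BiP, fell by 0.41 ± 0.079. TAPBPL, a relative of tapasin that edits peptides, rose by 0.61 ± 0.180 with the combination, and by 0.48 ± 0.177 in the combination against tretinoin, where HSPA5 fell by 0.27 ± 0.079, a call lost under upper quartile scaling. With the combination the list had 3 higher and none lower by edgeR, with 1 lower at an unadjusted p under 0.05 and 1 by DESeq2. The ERAP1 calls were lost without DMSO replicates 1 or 2 or vemurafenib replicates 1 or 2 (vemurafenib) and without combination replicate 3 (combination), that of SPPL3 without DMSO replicate 3, and those of ERAP2 without DMSO replicate 2 or vemurafenib replicates 2 or 3 (vemurafenib) and without any 1 DMSO library or combination replicates 1 or 2, with the DESeq2 Wald test or with the replicate block (combination). The TAPBPL call against tretinoin was lost with the DESeq2 Wald test, with only the groups compared and without tretinoin replicates 1 or 2 or any 1 combination library.

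Of 14 genes for factors that act on class I promoters, none was called with tretinoin by edgeR or DESeq2 (5 at an unadjusted p under 0.05). Vemurafenib gave 2 higher and 5 lower, and the combination 3 higher and 4 lower, beside 26.4% and 26.3% of all genes with vemurafenib and 27.1% and 26.5% with the combination. CIITA, the class II transactivator and a relative of NLRC5, stood at 33.6, 31.1 and 33.2 CPM in DMSO and at 45.8, 38.0 and 37.1 in tretinoin. It stood at 3.12, 3.90 and 3.67 CPM in vemurafenib and at 4.46, 5.44 and 4.98 in the combination. It fell 9.16-fold with vemurafenib and 6.56-fold with the combination, at log2 differences of −3.19 ± 0.120 (adjusted p = 6.03e-13, edgeR) and −2.71 ± 0.113.

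IRF1, which binds the ISRE of class I promoters, was measured at 25.5, 26.9 and 25.9 CPM in DMSO, 29.3, 29.2 and 30.1 in tretinoin, 11.6, 12.7 and 12.9 in vemurafenib, and 23.4, 22.9 and 20.8 in the combination. The groups did not overlap. IRF1 fell by 1.07 ± 0.084 on the log2 scale with vemurafenib (adjusted p = 1.03e-08, edgeR) and by 0.22 ± 0.079 with the combination (adjusted p = 0.0249), the second call being lost in 7 alternatives: total counts, upper quartile scaling, no filter, a minimum of 10 counts per library, a fit of these 2 groups alone, and without DMSO replicate 2 or combination replicate 3. It stood 0.85 ± 0.084 higher in the combination than with vemurafenib alone (adjusted p = 3.86e-06, edgeR), the 1 gene of the list called there. Against tretinoin alone the combination was lower by 0.40 ± 0.079 (adjusted p = 0.000388, edgeR). The interaction was 0.67 ± 0.115 (adjusted p = 0.00849, edgeR) and was also the only one called in the list.

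Among the other partners, NFKB1 fell by 0.54 ± 0.080 with vemurafenib and 0.61 ± 0.080 with the combination, and ATF1 by 0.49 ± 0.081 with the combination. RFXAP, a subunit of the RFX complex that works with NLRC5 and CIITA, rose by 0.46 ± 0.120 and 0.69 ± 0.117. Of 10 tested interferon receptor and signalling genes, none was called with tretinoin by edgeR or DESeq2 (2 at an unadjusted p under 0.05). Vemurafenib gave 2 higher and 2 lower, and the combination 1 higher and 2 lower. Over all genes, 26.4% were called higher and 26.3% lower with vemurafenib, and 27.1% and 26.5% with the combination. STAT2 rose by 1.22 ± 0.088 and 1.16 ± 0.088, from 18.9 to 22.1 CPM in DMSO to 43.5 to 51.8 CPM in the 6 libraries with vemurafenib. SOCS3, a feedback inhibitor of JAK signalling, fell by 1.45 ± 0.114 and 1.43 ± 0.112. IFNGR2, a chain of the interferon gamma receptor, fell by 1.13 ± 0.107 and 1.12 ± 0.107. JAK2 rose by 0.57 ± 0.119 with vemurafenib. Between the combination and tretinoin, 24.1% of all genes were called higher and 25% lower. There 3 transcription partners rose and 5 fell, led by CIITA (−3.01 ± 0.113), RFXAP (0.68 ± 0.117), NFKB1 (−0.58 ± 0.080) and ATF1 (−0.48 ± 0.081). In the signalling list 1 rose and 2 fell, namely STAT2 (0.96 ± 0.087), SOCS3 (−1.48 ± 0.112) and IFNGR2 (−1.21 ± 0.106).

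**Figure D4:**
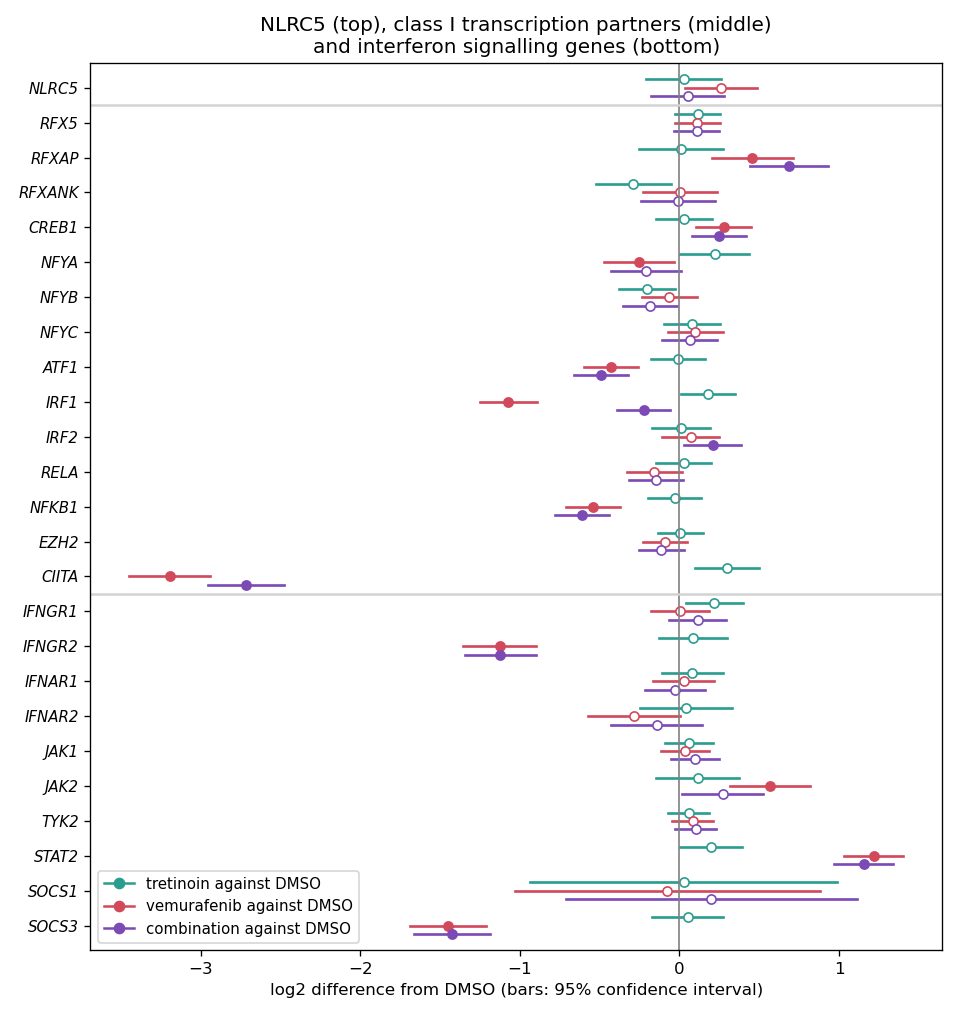
Log2 difference from DMSO for NLRC5, 14 class I transcription partners and 10 interferon signalling genes with each treatment, with 95% confidence intervals; filled points have an adjusted p under 0.05. CIITA at −3.19 and −2.71, SOCS3 and IFNGR2 lie far to the left with vemurafenib and with the combination, STAT2 lies to the right, and IRF1 lies at −1.07 with vemurafenib but at −0.22 with the combination.

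Class II genes, which present peptides to CD4+ T cells and which CIITA drives, were examined for comparison with the members. Of 11 tested, none rose and 5 fell with vemurafenib, and none rose and 3 fell with the combination. None was higher at an unadjusted p under 0.05 or by DESeq2. Among all genes tested, 26.4% were called higher and 26.3% lower with vemurafenib, and 27.1% and 26.5% with the combination. The HLA-DPA1 call with vemurafenib held in 14 of 20 alternatives. HLA-DRA fell from 138, 142 and 135 CPM in DMSO to 106, 107 and 106 with vemurafenib, by 0.38 ± 0.072 on the log2 scale (adjusted p = 0.000296, edgeR), and by 0.27 ± 0.072 with the combination. HLA-DMB, part of the peptide exchange factor HLA-DM, fell by 0.68 ± 0.177 and 0.59 ± 0.173, and its partner HLA-DMA by 0.4 ± 0.099 and 0.25 ± 0.097. HLA-DRB1 fell by 0.32 ± 0.117 with vemurafenib, a call lost under total counts and upper quartile scaling, with at least 10 counts in every sample, and without DMSO replicates 1 or 2 or any 1 vemurafenib library. With tretinoin alone HLA-DMA rose by 0.39 ± 0.096 (adjusted p = 0.0231, edgeR), a call lost with the replicate block, with only the groups compared, and without tretinoin replicate 1 or DMSO replicates 1 or 2. In the combination against tretinoin 4 fell, where 25% of all genes were called lower. They were HLA-DMB by 1.14 ± 0.166, HLA-DMA by 0.64 ± 0.095, HLA-DRA by 0.41 ± 0.072 and HLA-DPA1 by 0.21 ± 0.078. The HLA-DPA1 call was lost in 9 alternatives: the DESeq2 Wald test, total counts, upper quartile scaling, no filter, a minimum of 10 counts per library, the replicate block, a fit of these 2 groups alone, and without tretinoin replicate 1 or combination replicate 1. The HLA-DMA call with the combination was lost in 10, namely the first 6 of these and without DMSO replicates 2 or 3 or combination replicates 1 or 3. With the combination the HLA-DRA call was lost under total counts and upper quartile scaling and the HLA-DMB call under total counts, which also ended the HLA-DMA call with vemurafenib. The marker MITF, the melanocyte master regulator, rose by 0.88 ± 0.102 with vemurafenib and 0.64 ± 0.102 with the combination, and by 0.77 ± 0.103 in the combination against tretinoin. PTPRC, the leukocyte marker CD45, rose by 1.46 ± 0.320 with tretinoin, 1.36 ± 0.317 with vemurafenib and 1.77 ± 0.304 with the combination, on 13 to 26 fragments per library in DMSO and 37 to 83 in the treated groups, and the tretinoin call was lost with only the groups compared and without DMSO replicates 1 or 3.

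How libraries are scaled sets where 0 lies for genes that move little. With library totals alone in place of TMM, the median log2 difference over all genes moved to 0.214 with vemurafenib and 0.187 with the combination, and calls with vemurafenib were 6575 higher and 2628 lower in place of 4411 and 4400. With upper quartile scaling they were 6002 and 3099. B2M, HLA-B, HLA-E and TAP1 lay below 0 with vemurafenib under TMM and above 0, but below the median of all genes, under both other scalings. TAP2 stayed lower and TAPBP higher in all 4 scalings.

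**Figure D5:**
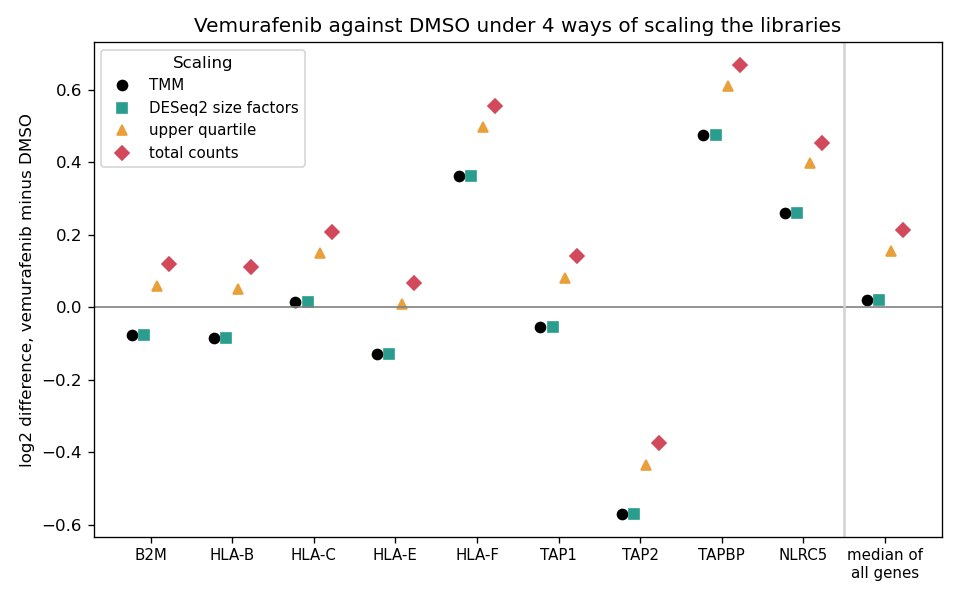
Log2 difference between vemurafenib and DMSO for each gene, and the median over all genes, under TMM, DESeq2 size factors, upper quartile and total count scaling. TMM and DESeq2 points coincide; the other scalings lift all genes, and their median to 0.156 and 0.214, while TAP2 stays below 0 and TAPBP above it.

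The genes whose pattern over the 4 group means was nearest to that of TAP2 were RAD54L, MTRR, ZC3H12C, CUEDC1 and ELFN1-AS1, among 12626 genes. Likeness was the Euclidean distance between group means of log2 CPM, each centred on its own mean, and ran from 0.0165 for RAD54L to 0.0414 for ELFN1-AS1. The centred means of RAD54L were 0.222 in DMSO, 0.388 in tretinoin, −0.346 in vemurafenib and −0.264 in the combination. For HLA-E, the member nearest to DMSO with the combination, the nearest genes were ARHGAP45, RMND5A, PPIE, CCDC74B and MTHFD2, at distances from 0.00957 to 0.0227. The measure rests on 4 points per gene.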

How the data were processed

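A375 cells were sequenced as poly(A) RNA in 4 groups of 3 libraries. Per the study's methods, the authors aligned 150-base paired-end reads to GRCh38.p10 with STAR 2.5.3a and deposited raw counts of fragments per GENCODE 27 gene, counted in Union mode without regard to strand; how reads with several alignments were handled is not given in the sources used here. From these deposited counts, genes were filtered with filterByExpr, normalized by TMM and fitted with edgeR 4.0.16 in R 4.3.3 over all 12 libraries with no block. Standard errors were derived from the F statistic, and p-values were adjusted by Benjamini-Hochberg over 16740 genes (threshold 0.05). Alternatives were DESeq2 1.42.0, other scalings and filters, only the groups compared, a replicate block, and leaving out each library. The fit was tested on simulated counts with known changes. Positions came from GENCODE 29 and promoters from RefSeq (GRCh38.p14); shared stretches were found with blastn 2.17.0+. Every member was followed in every comparison, and from each other list at most 4 called genes with the largest log2 difference per comparison; IRF1 was followed through every comparison after its interaction was seen. The members and lists were chosen with earlier results of these data known. Of the listed genes, 3 are not reported here. Residuals of libraries with the same replicate number correlated at −0.143 to 0.0872 over 18 pairs, so the numbers were not treated as pairs.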

Additional observations from a re-analysis of the deposited data

Results flagged for a closer look

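Of the genes described, only IRF1 had its response to tretinoin called different with and without vemurafenib, and uncalled genes were not shown to respond alike. The interaction was 0.67 on the log2 scale (SE 0.115, adjusted p = 0.00849, edgeR): with tretinoin alone IRF1 stood 0.18 above DMSO (adjusted p = 0.183), and the combination stood 0.85 above vemurafenib. All 3 combination libraries were above all 3 vemurafenib libraries. The interaction was called under each of the 19 alternatives run for it, with values from 0.56 to 0.72 and adjusted p-values up to 0.0371.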

How the results depend on the processing

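The TAP2 and TAPBP calls with vemurafenib and with the combination held under all 20 alternatives of each, as did the TAP2 call in the combination against tretinoin; their causes and those of the changes below were not tested. HLA-F was counted at 21 to 63 fragments per library. In all, 73 member values changed sign under an alternative, 13 with total counts only and 8 with upper quartile scaling, which raise the median of all genes with vemurafenib, and none of the 73 was called.

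The count of members called higher moved as follows. With vemurafenib it was 2 in place of 1 (NLRC5 added) with DESeq2 size factors, total counts only, upper quartile scaling, at least 10 counts in every sample, and only the groups compared, and 1 to 2 without single libraries. With the combination it was 3 with total counts only and 2 with upper quartile scaling. In the combination against tretinoin it was 2 with those scalings and with at least 10 counts in every sample, 0 with only the groups compared, and 0 to 1 without single libraries. With tretinoin it was 1 with total counts only and 0 to 1 without single libraries.

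Signs changed with total counts only for HLA-B 0.055, B2M 0.019 and TAP1 0.030 with tretinoin; HLA-B 0.11, HLA-E 0.067, B2M 0.12 and TAP1 0.14 with vemurafenib; B2M 0.12 and TAP1 0.11 with the combination; TAP1 −0.029 in the combination against vemurafenib and 0.082 against tretinoin; and, for the interaction, B2M −0.018 and TAP1 −0.059. With upper quartile scaling they changed for HLA-B 0.0080 with tretinoin, for HLA-B 0.051, HLA-E 0.0080, B2M 0.060 and TAP1 0.082 with vemurafenib, for B2M 0.094 and TAP1 0.086 with the combination, and for TAP1 0.10 in the combination against tretinoin. Without the low-count filter HLA-C was −0.0046 with vemurafenib and TAP1 0.0038 in the combination against tretinoin. The DESeq2 Wald test gave HLA-B −0.0072 and HLA-E −0.012 with the combination and TAP1 −0.0024 in the combination against vemurafenib, and DESeq2 size factors gave HLA-E −0.0021 with the combination. With at least 10 counts in every sample B2M was 0.0051 with the combination and TAP1 0.031 in the combination against tretinoin, and with only the groups compared TAP1 was 0.0033 there.

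Leaving out each library in turn changed signs over these ranges. With tretinoin they were −0.076 to 0.035 for HLA-B, −0.18 to 0.012 for HLA-E, −0.058 to 0.21 for HLA-F and −0.042 to 0.13 for NLRC5. With vemurafenib HLA-C ranged from −0.027 to 0.045. With the combination HLA-B ranged from −0.032 to 0.057, HLA-E from −0.041 to 0.058 and NLRC5 from −0.016 to 0.091. For the combination against vemurafenib HLA-F ranged from −0.32 to 0.066 and TAP1 from −0.036 to 0.076. For the combination against tretinoin the ranges were −0.032 to 0.076 for HLA-B, −0.014 to 0.18 for HLA-E, −0.022 to 0.25 for HLA-F, −0.032 to 0.026 for B2M, −0.041 to 0.025 for TAP1 and −0.080 to 0.080 for NLRC5. The HLA-F interaction ranged from −0.38 to 0.0040.

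Over all genes, calls with tretinoin (583 higher and 368 lower) became 583 and 659 by DESeq2, 758 and 174 with total counts only, 736 and 804 without the filter, 234 and 71 with only the groups compared, and 273 to 711 and 106 to 656 without single libraries. Interaction calls (64 and 71) became 124 and 130 by DESeq2, 36 and 132 with total counts only, 389 and 221 without the filter, and 31 to 121 and 27 to 144 without single libraries. Calls in the combination against vemurafenib (380 and 369) became 584 and 685 with only the groups compared, and 254 to 538 and 203 to 634 without single libraries. With total counts only, calls with the combination were 6242 and 2916 in place of 4537 and 4440. The fit with the replicate number as a block gave 429 and 219 calls with tretinoin and 39 and 36 for the interaction. The block changed no call of a member, and it gave 1 member higher and 1 lower with vemurafenib and with the combination; same-numbered libraries did not deviate together.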
